A study of Homo sapiens with 8 samples.

Results

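The 46 genes described here encode the machinery that copies DNA and the enzymes that supply its nucleotides. They were chosen by name for these published roles, with earlier results of these data known. All 46 were found among the 62639 genes of the annotation. All of them passed the filter on low counts that left 7597 genes for testing. MOLM-13 is a cell line from a patient with acute myeloid leukemia. In this experiment 4 libraries came from cells with an inducible shRNA against PTBP1 (shPTBP1) and 4 from cells with a scrambled shRNA (shControl, genotype given as WT), and both groups received doxycycline for 9 days. In both, the lentiviral construct also expressed mCherry at all times and ΔLNGFR with the shRNA. Only 1 shRNA was used against PTBP1, so effects of the PTBP1 loss and other differences between the transduced cells cannot be told apart. The RNA was read as nanopore cDNA, and the values are counts per gene, given as CPM (counts per 1000000 counts of a library, after TMM normalization).

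DNA replication begins where the origin recognition complex (ORC) sits on chromatin. CDC6 and CDT1 then help ORC load the MCM2 to MCM7 helicase, which is activated with CDC45 and the GINS complex. Polymerase alpha and primase start each new strand, polymerases delta and epsilon extend it on the PCNA clamp, and ribonucleotide reductase, TYMS and TK1 supply deoxynucleotides. Many of these genes are transcribed by E2F factors as cells enter S phase, and their expression is a known mark of proliferating cells, leukemia cells included.

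PTBP1 itself fell from between 39.9 and 57.3 CPM after shControl to between 6.33 and 14.7 CPM after shPTBP1, with a log2 fold change of -2.26 (SE 0.22, edgeR quasi-likelihood test, Benjamini-Hochberg adjusted p = 7.183e-05), in all 4 libraries of the group. The libraries held from 1528449 to 1613342 counts in all, of which the replication genes took 7162 to 8287, and 12322 to 12589 genes had a count. Of the myeloid markers, CEBPA, LYZ, CD33 and HOXA9 were well detected, while the myeloid factor SPI1 had 1 count in all libraries together, CD34 had 3 and FLT3 had 53. T cell (CD3E, CD3D), B cell (MS4A1) and erythroid (HBB, HBG1) markers were at 0 in every library. Summed markers of other lineages, most of them counts of PECAM1, lay between 32.9 and 42.3 CPM after shPTBP1 and between 36.3 and 46.1 after shControl. The values are averages over all cells of a culture, so that fewer cells in S phase and less RNA per cell cannot be told apart. The labels call the replicates biological but do not say that they were separate transductions, and p values measure only the spread between these libraries.

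Few genes of this machinery passed the test for a change after shPTBP1. Of the 46 genes, 1 passed the test, ORC5, which was higher after shPTBP1, and 0 were lower. Across all 7597 genes, 5.54% were called, 2.36% higher and 3.19% lower. At an unadjusted p under 0.05 there were 11 replication genes, all higher, which is 23.9% of them. Of all genes 19.2% passed this limit, 9.1% higher and 10.1% lower. Those 11 were ORC5, MCM3, MCM5, MCM7, PRIM1, PRIM2, POLE3, PCNA, RPA2, RPA3 and FEN1. In 7 of the 46 (15.2%) the groups did not overlap, all of them higher after shPTBP1. Among all genes the groups did not overlap in 12.7%, of which 6.32% were higher and 6.37% lower. The other 39 had overlapping groups, and 0 were lower without overlap. DESeq2, which gave an adjusted p to 34 of the 46, called 0 in either direction.

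**Figure D1:**
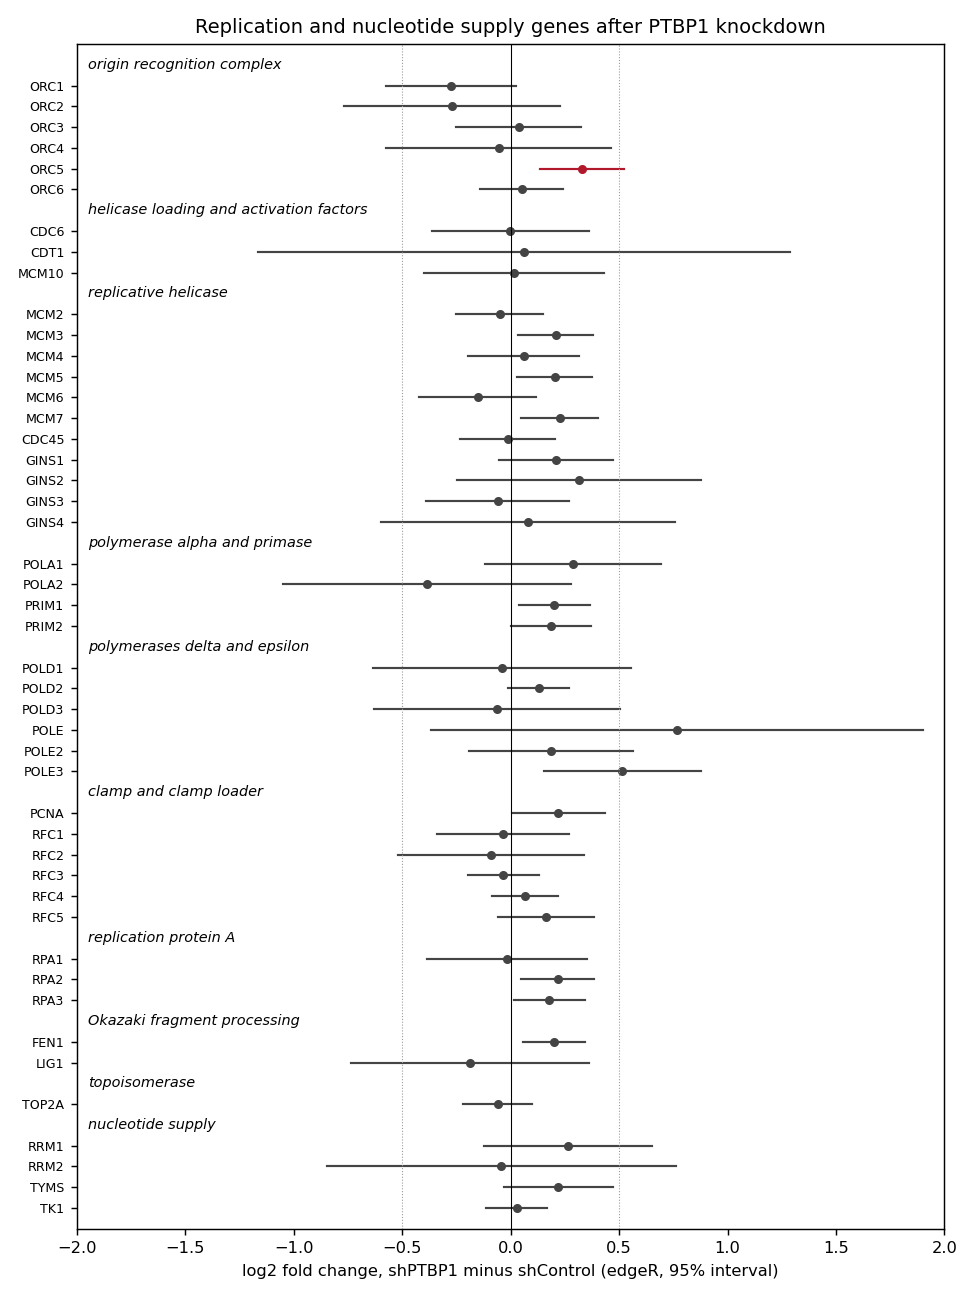
Log2 fold change, shPTBP1 minus shControl, of each of the 46 genes by role (points) with the 95% interval from edgeR (lines). ORC5, in red, has an adjusted p under 0.05, and 28 of the 46 intervals lie within -0.5 to 0.5 (dotted lines).

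The intervals show how large a change the data would allow. For 28 of the 46 genes (60.9%, beside 41.9% of all genes) the 95% interval of the log2 fold change lay within -0.5 to 0.5, a change of at most 41.4% upwards. For 43 (93.5%, beside 84.8%) it lay within -1 to 1. Only CDT1 and POLA2 had an interval that reached below -1, beside 9.25% of all genes. The median width of the interval on each side was 0.28, from 0.14 to 1.23, and it was 0.18 for the 25 genes with a mean over 50 CPM and 0.50 for the 21 others. A decrease by a log2 fold change of 1 was thus outside the intervals of 44 of the 46 genes.

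Most of the small differences pointed upwards among the better measured genes. The log2 fold change was above 0 for 28 of the 46 genes (60.9%, beside 50% of all genes), with a median of 0.06 beside -0.00014 for all genes tested. That median was 0.09 without shPTBP1 replicate 4 and 0.11 without either shControl replicate 1 or 2. Among the 25 with a mean over 50 CPM, 20 were above 0 and the median was 0.18, beside 54.3% above 0 and a median of 0.02 for the 2768 genes of that level. Among the 21 below that level, 8 were above 0 and the median was -0.04. Summed over the 46 genes, the level lay between 5224 and 5301 CPM after shPTBP1 (mean 5258 ± 33.1, SD, n = 4) and between 4560 and 4999 CPM after shControl (4818 ± 185, n = 4). Without TYMS, the most abundant of them, the sums were 4281 to 4534 and 4008 to 4180 CPM. The groups of both sums did not overlap. These sums weigh abundant genes most and are given as a description.

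The origin recognition complex has 6 subunits, and its called member is ORC5 (ENSG00000164815, GRCh38 chr7:104126341-104208047), which holds the complex together and binds ATP. After shPTBP1 its level was 97.4, 95.8, 106.6 and 89.0 CPM in replicates 1 to 4, and after shControl it was 73.1, 82.8, 74.7 and 78.9 CPM. All 4 shPTBP1 libraries were above all 4 shControl libraries, with means of 97.2 ± 7.27 and 77.4 ± 4.35 CPM (SD, n = 4). The log2 fold change was 0.33 (SE 0.09, 95% interval 0.14 to 0.52, edgeR adjusted p = 0.049), and the exact two-sided permutation test gave p = 0.0286, the smallest that 4 libraries against 4 allow. This call stood close to the threshold and was lost under 13 of the 16 other settings, where the adjusted p ranged from 0.0598 to 0.155. Leaving out any 1 of the 8 libraries was enough to lose it, while the log2 fold change stayed between 0.28 and 0.37.

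The other ORC genes were not called. ORC6, the least conserved subunit and the most abundant of the complex by mean CPM, had 95.5, 101.7, 115.2 and 92.2 CPM after shPTBP1 and 99.6, 97.4, 99.4 and 94.3 CPM after shControl, with overlapping groups and a log2 fold change of 0.05 (95% interval -0.14 to 0.24). ORC1, which sits on origins in G1 and is degraded in S phase, was lowest of the complex with a log2 fold change of -0.28 (edgeR adjusted p = 0.301). ORC1 stood at 60.1 CPM in shPTBP1 replicate 2 and between 39.2 and 41.6 CPM in the other 3, against 51.6 to 59.4 CPM after shControl. ORC2 (-0.27), ORC3 (0.04) and ORC4 (-0.05) lay between, and ORC2 and ORC4 were measured at under 18 CPM in every library.

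The loading factors were low. CDT1, the partner of CDC6 at the origin, had 6, 13, 9 and 13 counts after shPTBP1 and 12, 10, 0 and 18 after shControl. Its interval, -1.17 to 1.29, did not leave out a change of 1 on the log2 scale in either direction. CDC6 was at 21.0 ± 2.08 CPM after shPTBP1 and 21.1 ± 2.30 CPM after shControl (SD, n = 4). MCM10, which helps the loaded helicase start, had 25.9, 25.1, 20.4 and 27.5 CPM after shPTBP1 and 17.2, 31.2, 25.3 and 24.4 CPM after shControl. The groups overlapped throughout, and its log2 fold change of 0.02 changed sign when single libraries were left out.

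The 6 subunits of the MCM helicase work as a ring with 1 copy of each, yet their RNA levels were unequal. Per kilobase of transcript in shControl, MCM7 stood at 116 ± 10.9 CPM per kb, MCM3 at 51.1 ± 3.25, MCM2 at 46.6 ± 4.22, MCM5 at 37.6 ± 3.07, MCM4 at 16.2 ± 1.42 and MCM6 at 13.7 ± 1.11 (SD, n = 4). By these SDs MCM3 and MCM2 were neighbours that did not differ beyond their spread, and MCM4 and MCM6 differed by less than the sum of their SDs. The order of the 6 was the same in mean CPM without division by length.

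MCM7, the most abundant, had 365, 329, 298 and 334 CPM after shPTBP1 and 302, 264, 311 and 258 CPM after shControl. Its groups overlapped, because shPTBP1 replicate 3 lay below 2 of the shControl libraries, and the log2 fold change was 0.23 (95% interval 0.05 to 0.40, edgeR adjusted p = 0.143). MCM3 had 211, 185, 179 and 176 CPM after shPTBP1 and 149, 169, 172 and 162 CPM after shControl. The MCM3 groups did not overlap, and its log2 fold change was 0.21 (95% interval 0.03 to 0.38, edgeR adjusted p = 0.172). MCM5 had 133.5, 127.5, 123.8 and 123.6 CPM after shPTBP1 and 122.9, 108.2, 101.4 and 109.1 CPM after shControl. These groups were separated by less than 1 CPM, and the log2 fold change was 0.20 (95% interval 0.03 to 0.38, edgeR adjusted p = 0.190). MCM2 (-0.05), MCM4 (0.06) and MCM6 (-0.15) did not share this, and their groups overlapped. Summed over the ring, the level was 861 to 993 CPM after shPTBP1 and 790 to 865 CPM after shControl. The activators of the helicase, CDC45 and the 4 GINS subunits, had log2 fold changes between -0.06 for GINS3 and 0.31 for GINS2, and 0 of 5 had an unadjusted p under 0.05.

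Of the enzymes that start and extend strands, 0 were called. PRIM1, the catalytic subunit of primase, had 229, 219, 235 and 217 CPM after shPTBP1 and 194, 173, 205 and 212 CPM after shControl. Its groups did not overlap, with a log2 fold change of 0.20 (95% interval 0.04 to 0.36, edgeR adjusted p = 0.160). Counting protein-coding transcripts only, which leaves out its leading isoform, gave 0.11 (edgeR adjusted p = 0.700). The groups then did not overlap for 6 of the 43 replication genes that were fitted. The share over all genes is not given for this setting, and it was 12.7% with all transcripts. PRIM2, the large subunit of primase, had a log2 fold change of 0.18 (edgeR adjusted p = 0.257). The polymerase subunits POLA1 (0.29) and POLA2 (-0.39) were at a mean under 25 CPM in both groups and were not called. The leading isoform of PRIM1 shares 33 bases with an isoform of NACA on the same strand, a gene with 36923 counts beside 2613 for PRIM1, and whether reads of NACA were counted for PRIM1 was not tested.

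POLE3, a histone-fold subunit of polymerase epsilon, had the largest log2 fold change among the genes whose groups did not overlap. It had 31.0, 41.0, 27.0 and 36.5 CPM after shPTBP1 and 20.3, 24.8, 23.3 and 26.3 CPM after shControl. The lowest shPTBP1 library lay just above the highest shControl library, and the log2 fold change of 0.51 (SE 0.17, 95% interval 0.15 to 0.88) did not pass the test (edgeR adjusted p = 0.0985). POLD2, a subunit of polymerase delta and the most abundant of this role, had 245, 254, 261 and 252 CPM after shPTBP1 and 218, 224, 237 and 246 CPM after shControl. Only the highest shControl library overlapped the shPTBP1 range, and the log2 fold change was 0.13 (95% interval -0.01 to 0.27, edgeR adjusted p = 0.302).

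POLE, the catalytic subunit of polymerase epsilon, had the largest log2 fold change of all 46, 0.77, with an interval of -0.37 to 1.90. This value rests on the isoform POLE-214, annotated as a retained intron of 2 exons, which held 38, 17, 0 and 28 counts after shPTBP1 and 18, 0, 0 and 22 counts after shControl. Without it POLE had 4, 8, 5 and 1 counts after shPTBP1 and 5, 6, 5 and 4 counts after shControl (exact two-sided permutation test, p = 0.771). A count of 0 in 3 libraries beside 17 or more in 5 was seen within both groups. Spliced POLE mRNA was thus too rare for a statement on its level.

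The clamp PCNA had 170.8, 164.5, 183.0 and 169.0 CPM after shPTBP1 and 137, 124, 177 and 152 CPM after shControl, with a log2 fold change of 0.22 (edgeR adjusted p = 0.245). Its shControl libraries were the more spread, and replicate 3 of them lay inside the shPTBP1 range. RFC4, the most abundant subunit of the clamp loader, had 168, 184, 177 and 164 CPM after shPTBP1 and 171, 157, 161 and 171 CPM after shControl. Its groups overlapped, and its interval of -0.08 to 0.22 left out changes above 1.16-fold. RFC1, RFC2 and RFC3 lay between -0.09 and -0.03 and RFC5 at 0.16 on the log2 scale, and 0 of the 5 loader subunits had an unadjusted p under 0.05.

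Replication protein A covers single-stranded DNA. RPA2, its middle subunit, had 162, 139, 153 and 153 CPM after shPTBP1 and 127, 121, 138 and 137 CPM after shControl, with groups that lay close without overlap and a log2 fold change of 0.22 (edgeR adjusted p = 0.135). RPA3, the small subunit, had 238, 254, 271 and 272 CPM after shPTBP1 and 221, 206, 240 and 246 CPM after shControl. RPA3 groups overlapped, with a log2 fold change of 0.18 (edgeR adjusted p = 0.220), while RPA1, which binds DNA most tightly, was at -0.02 with 21.1 to 31.8 CPM in all libraries. Of the enzymes that mature lagging strands, FEN1, the flap endonuclease, had 270, 291, 294 and 264 CPM after shPTBP1 and 254, 252, 236 and 234 CPM after shControl. The FEN1 groups did not overlap, and the log2 fold change was 0.20 (SE 0.07, 95% interval 0.05 to 0.34, edgeR adjusted p = 0.110), whereas LIG1, the ligase, was at -0.19 with overlapping groups. TOP2A, which untangles the copied DNA, had 280, 246, 259 and 269 CPM after shPTBP1 and 302, 285, 252 and 260 CPM after shControl. Its log2 fold change was -0.06 (95% interval -0.22 to 0.10).

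The nucleotide enzymes included the most abundant RNAs of the 46 and also RRM2, which was near the low end. Per kilobase in shControl, TYMS, which makes thymidylate, stood at 524 ± 95.2 CPM per kb and TK1, which salvages thymidine, at 367 ± 9.15 (SD, n = 4), ahead of RPA3 at 246 ± 19.7 and POLD2 at 141 ± 7.65. At the other end ORC4 was at 1.496 ± 0.184 CPM per kb and RRM2, the small subunit of ribonucleotide reductase, at 2.15 ± 0.994. Without division by length, TYMS (715.2 CPM) and TK1 (527.5) still had the highest shControl means. MCM7 (283.8), TOP2A (274.9), FEN1 (243.7) and POLD2 (231.4) then stood above RPA3 (228.3). CDT1 (6.323), RRM2 (6.999), GINS4, GINS2 and POLA2 had lower means than ORC4 (9.407). The places of RPA3 and ORC4 in the order thus depend on the division by length. TYMS had 709, 859, 822 and 942 CPM after shPTBP1 and 856, 552, 682 and 771 CPM after shControl. Its libraries were widely spread within both groups, which overlapped, and its log2 fold change was 0.22 (95% interval -0.03 to 0.47, edgeR adjusted p = 0.332). Without shControl replicate 2, its lowest library, it was 0.11. TK1, at 476 to 565 CPM after shPTBP1 and 511 to 540 CPM after shControl, had an interval of -0.11 to 0.17. RRM1, the large reductase subunit, was at 0.26 (95% interval -0.13 to 0.65). RRM2 had fewer than 12 CPM in every library, so that its interval of -0.85 to 0.76 says little. Counting was not stated to use strand, and the leading isoform of TYMS overlaps 873 bases of ENOSF1 on the opposite strand, which had 232 counts beside 9626 for TYMS.

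Other genes of the same pathways gave a similar picture. The counts below stand beside 5.54% called across all genes tested, 2.36% higher and 3.19% lower. Of 34 further replication factors 30 were tested and 1 was called, GMNN, the inhibitor of CDT1, with a log2 fold change of 0.36 (edgeR adjusted p = 0.0441), and the median was 0.04. Its level rose from 71.0 ± 3.38 to 91.3 ± 8.82 CPM (SD, n = 4), a call lost under 12 of the 16 other settings. Of 36 further enzymes of nucleotide synthesis 34 were tested and 2 were called. GUK1, the guanylate kinase, fell by 0.44 on the log2 scale (edgeR adjusted p = 0.0456), a call lost under 7 settings. IMPDH2, the rate-limiting enzyme of guanine nucleotide synthesis, rose by 0.30 (edgeR adjusted p = 0.0193), a call lost when any of 4 single libraries was left out. Of the 13 E2F and retinoblastoma family genes, 8 were tested and 0 were called by edgeR or DESeq2. At an unadjusted p under 0.05 there were 3, beside 19.2% of all genes. The dimer partner TFDP1 was higher at 0.42 (edgeR adjusted p = 0.0822) and was called with no filter on low counts and without shControl replicate 1. The pocket protein RB1 was lower at -0.67 (edgeR adjusted p = 0.193) and E2F4, a repressor that binds pocket proteins, at -0.52 (edgeR adjusted p = 0.204).

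Mitosis is a later step of the cycle. Of 36 of its genes 33 were tested and 3 were called, beside 5.54% of all genes. They were CKS1B, CDCA8 and CDC20, all lower after shPTBP1, beside 3.19% of all genes called lower. These 3 were called in each of the 16 other settings. The log2 fold change was above 0 for 12 of the 33 (36.4%), beside 50% of all genes. CKS1B, a cofactor of cyclin-dependent kinases, fell by 0.61 on the log2 scale (edgeR adjusted p = 0.000289), from 321 ± 3.13 to 210 ± 18.7 CPM (SD, n = 4). CDCA8, a subunit of the chromosomal passenger complex, fell by 0.49 (edgeR adjusted p = 0.0128) and CDC20, an activator of the anaphase-promoting complex, fell by 0.39 (edgeR adjusted p = 0.00721). Summed over the mitosis list, the level was 5451 to 5602 CPM after shPTBP1 and 5786 to 6041 CPM after shControl, without overlap. Without the 3 called genes it was 4419 to 4523 and 4387 to 4482 CPM, and the groups overlapped. The median log2 fold change of the list was -0.03, beside 0.06 for the 46 replication genes, and the difference between the lists was not tested. Beside these, the summed myeloid markers were 739 to 842 CPM after shPTBP1 and 638 to 702 CPM after shControl. Of the 8 tested, 1 was called (beside 5.54% of all genes), FUT4 (0.57, edgeR adjusted p = 0.0146), which makes the CD15 antigen. Without FUT4, LYZ and CD33 the sums were 273 to 306 and 262 to 315 CPM and overlapped. ITGAM, the integrin chain CD11b, was at -0.85 (edgeR adjusted p = 0.245) and was called lower without shPTBP1 replicate 1, and FLT3, too low to be tested, was at 2.93 ± 0.887 CPM after shPTBP1 and 5.56 ± 1.41 CPM after shControl (SD, n = 4). Whether a shift in cell cycle phase or maturation had a part in these values was not tested.

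Because PTBP1 acts in splicing, the isoforms of the replication genes were examined as the share of the counts of a gene that fell on each annotated transcript. The 46 genes had 239 isoforms with a count, and 32 isoforms in 15 genes could be tested. By edgeR's diffSpliceDGE, 0 of the 32 were called at an adjusted p under 0.05 with a change of at least 10 percentage points, beside 1.12% of the 5464 isoforms tested in all genes. At an unadjusted p under 0.05 there was 1 (3.12%, beside 6.37% of all isoforms), and limma's diffSplice also called 0. The change was under 5 percentage points for 29 of the 32, and the largest was 8.97 points. In 32 of the 46 genes the leading isoform held over 80% of the counts, and in 18 over 95%.

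RFC5-201, an isoform of a clamp loader subunit, had the smallest p of the 32. It held 19.7%, 20.2%, 14.5% and 18.8% of the RFC5 counts after shPTBP1 and 9.48%, 9.71%, 8.20% and 15.1% after shControl, so that the groups overlapped in 1 pair of libraries. These shares rest on 16 to 27 counts after shPTBP1 and 10 to 16 after shControl, and the test gave an unadjusted p of 0.00861 and an adjusted p of 0.275 in edgeR. The next in p were PRIM2-208 (8.53% after shPTBP1 and 12.4% after shControl on average), TK1-203 (2.86% and 1.98%) and POLD2-235 (13.9% and 10.9%), with edgeR adjusted p values of 0.889, 0.889 and 1.00.

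The 3 genes PRIM1, MCM5 and ORC3 had 2 isoforms in large shares. They are described as a choice made after their values were seen, and other genes had such a split too. Pooled over libraries, LIG1-201 and LIG1-221 held 50.8% and 26.3% of the 179 LIG1 counts. GINS4-203 and GINS4-201 held 76% and 21% of the 100 GINS4 counts. PRIM1 was counted mostly as PRIM1-208, which is annotated as a target of nonsense-mediated decay, at 73.4% ± 4.29 after shPTBP1 and 72.1% ± 1.69 after shControl, and PRIM1-201, the canonical isoform, took 22.5% ± 4.37 and 24.3% ± 3.03 (SD, n = 4). The 2 differ at an intron that starts 4 bases later and ends 2 bases later in PRIM1-208, in the direction of transcription, with intron lengths of 599 bases (PRIM1-201) and 597 bases (PRIM1-208). The junctions are printed to show this shift of a few bases. They are from GRCh38 on the minus strand, chr12:56746765-56746792 for the donors and chr12:56746168-56746193 for the acceptors, with exon in capitals and intron in lower case.
PRIM1-201 donor: GAGCATTGAAGGgcaagtatcagcagtt
PRIM1-208 donor: GAGCATTGAAGGGCAAgtatcagcagtt
PRIM1-201 acceptor: tctcttcctcagAGGACTTTGGATTT
PRIM1-208 acceptor: tctcttcctcagagGACTTTGGATTT

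The intron of PRIM1-201 starts with GC and that of PRIM1-208 with GT, and both end with AG. Whether nanopore reads were given to the right isoform at so small a shift was not tested.

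MCM5 was split almost evenly. MCM5-201, which holds an exon of 129 bases (43 codons) that MCM5-202 lacks, took 54.0%, 45.1%, 53.7% and 56.0% of the counts after shPTBP1 and 45.0%, 49.4%, 49.3% and 46.5% after shControl, and the groups overlapped (edgeR adjusted p = 1.00). The exon is printed as the piece of protein-coding sequence that sets the isoforms apart, from GRCh38 chr22:35403414-35403542, plus strand, with the exon in capitals.
MCM5-201 exon: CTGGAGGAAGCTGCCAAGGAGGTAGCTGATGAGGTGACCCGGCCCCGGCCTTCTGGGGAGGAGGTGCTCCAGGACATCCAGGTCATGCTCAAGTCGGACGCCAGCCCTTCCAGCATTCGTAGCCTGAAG

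ORC3 had the largest change of share among the 32 tested isoforms. ORC3-201 took 30.0%, 35.5%, 32.7% and 32.7% of its counts after shPTBP1 and 42.4%, 42.7%, 36.4% and 45.2% after shControl. These shares did not overlap, on 30 to 39 and 33 to 50 counts, but the isoform was not called (unadjusted p = 0.277 by edgeR's diffSpliceDGE, which sets each isoform against the others of its gene that pass the filter). ORC3-202, with an acceptor 3 bases further on, took 52.5% ± 3.58 and 49.1% ± 5.12 (SD, n = 4). ORC3 transcripts not annotated as protein coding took 8.7% after shPTBP1 and 3.6% after shControl on average, on 52 counts over all libraries. The acceptors are printed to show the shift, from GRCh38 chr6:87656888-87656920, plus strand, with exon in capitals and intron in lower case.
ORC3-201 acceptor: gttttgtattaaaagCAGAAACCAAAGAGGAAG
ORC3-202 acceptor: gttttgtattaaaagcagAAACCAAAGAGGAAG

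The isoforms of TYMS and MCM7 kept close shares in all libraries. TYMS-201 took 86.5% ± 0.818 after shPTBP1 and 86.9% ± 0.667 after shControl, and MCM7-201 took 58.0% ± 2.55 and 59.3% ± 3.18 (SD, n = 4). Over the 46 genes together, transcripts not annotated as protein coding held 4.13% to 4.802% of the counts after shPTBP1 and 3.67% to 4.43% after shControl, most of them PRIM1-208.

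The promoters of 4 genes are printed, those with the smallest p values among the genes with a promoter in the table, to show how they differ in motifs. They run from 250 bases before to 50 bases after the RefSeq start (GRCh38.p14), and 40 of the 46 genes matched the RefSeq table. RPA2, RPA3, MCM4, MCM5, POLD3 and GINS4 did not. Motifs were searched on both strands: E2F as TTTCCCGC, TTTCGCGC, TTTGCCGC or TTTGGCGC, NF-Y as CCAAT, RUNX as TGTGGT, and CHR, the cell cycle homology region of mitotic genes, as TTTGAA. Capitals mark E2F, NF-Y and RUNX matches. ORC5 at chr7:104207964-104208263, POLE3 at chr9:113410700-113410999 and MCM7 at chr7:100101348-100101647 are on the minus strand, and FEN1 at chr11:61792661-61792960 is on the plus strand.
ORC5: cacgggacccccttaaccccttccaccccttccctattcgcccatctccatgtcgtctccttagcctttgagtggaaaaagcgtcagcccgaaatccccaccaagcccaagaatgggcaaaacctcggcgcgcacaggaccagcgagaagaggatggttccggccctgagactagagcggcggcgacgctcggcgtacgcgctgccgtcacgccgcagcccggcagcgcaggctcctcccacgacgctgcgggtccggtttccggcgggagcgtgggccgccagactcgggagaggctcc
POLE3: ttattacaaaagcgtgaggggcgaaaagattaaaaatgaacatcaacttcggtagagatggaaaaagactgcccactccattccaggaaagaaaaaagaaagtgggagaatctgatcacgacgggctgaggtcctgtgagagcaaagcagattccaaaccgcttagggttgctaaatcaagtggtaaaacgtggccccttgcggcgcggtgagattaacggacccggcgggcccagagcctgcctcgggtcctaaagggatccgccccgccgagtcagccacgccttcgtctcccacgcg
FEN1: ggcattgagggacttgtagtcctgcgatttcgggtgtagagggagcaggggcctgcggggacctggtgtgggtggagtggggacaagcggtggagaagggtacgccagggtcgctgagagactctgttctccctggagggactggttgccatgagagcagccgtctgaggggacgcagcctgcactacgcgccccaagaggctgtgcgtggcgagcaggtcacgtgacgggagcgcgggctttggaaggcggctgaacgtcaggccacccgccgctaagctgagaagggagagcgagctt
MCM7: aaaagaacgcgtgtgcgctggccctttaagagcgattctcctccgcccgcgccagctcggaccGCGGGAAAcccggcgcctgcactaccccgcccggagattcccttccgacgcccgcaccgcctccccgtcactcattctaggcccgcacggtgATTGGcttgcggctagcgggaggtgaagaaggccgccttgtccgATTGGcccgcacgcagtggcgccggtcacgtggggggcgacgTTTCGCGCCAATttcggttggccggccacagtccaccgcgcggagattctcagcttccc

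ORC5, POLE3 and FEN1 hold 0 of the 4 motifs in these windows. MCM7 holds 2 E2F and 3 NF-Y matches, of which an E2F and an NF-Y match overlap. Over the 40 promoters, 18 (45%) held an E2F match, beside 3.31% of all 35116 promoters and 6.19% of those of the genes tested. NF-Y matches stood in 57.5%, beside 34.6% of all promoters and 39.2% of those of the genes tested. RUNX matches stood in 12.5%, beside 13.1% and 9.32%, and CHR matches in 2 (5%), TOP2A and RRM1, beside 15.2% and 10.2%. The mitosis list differed from this in its motifs, with a CHR match in 73.3% of 30 promoters, an NF-Y match in 80% and an E2F match in 10%. The median log2 fold change after shPTBP1 was 0.12 for the 18 replication genes with an E2F match and 0.02 for the 22 without, which was not tested. A match is a run of letters and does not show that a factor was bound.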

How the data were processed

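RNA of 8 MOLM-13 cultures was sequenced as nanopore cDNA. The authors mapped the reads with minimap2 (hg38), removed those of low mapping quality and used StringTie to count known transcripts, and tool versions are not given in the sources used here. The deposited counts are whole numbers per transcript without normalization. The deposited second table holds CPM, the count of a transcript per 1000000 counts of its library, without division by length. This was checked from the values, with a largest difference of 4.998e-07. Groups and replicate numbers came from the sample titles.

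Transcript counts were added up per gene by Ensembl identifier in GENCODE 44, which held 252562 of the 254070 transcripts. The others held at most 0.115% of the counts of a library. After filterByExpr with a minimum count of 10 and TMM normalization, shPTBP1 was compared with shControl by the quasi-likelihood test of edgeR 4.0.16, without covariates. A gene was called when its Benjamini-Hochberg adjusted p over the 7597 genes was under 0.05. Isoforms were tested with diffSpliceDGE. For single values a two-sided exact permutation test over the 8 libraries was used. Counting error is the smallest error of a value. Between replicate libraries the chi-square per degree of freedom over genes was 2.12 to 3.94, above what counting error alone would give. Each library was taken as its own sample, and these values do not show whether the libraries were independent. Amplified cDNA molecules are not independent.

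The genes and lists were chosen with earlier results of these data known. All 46 genes may be named. Those given in full are the called ones, the 8 with the smallest p otherwise and the most abundant of each role. Other lists give their called genes, and isoforms the called ones or otherwise the 4 with the smallest p. PTBP1 is given as the target. TFDP1, RB1, E2F4, ITGAM, the genes of the library checks and the isoforms of PRIM1, MCM5, ORC3, POLE, TYMS and MCM7 were named after their values were seen. On counts simulated with the means and depth of these libraries, edgeR called 70% of 100 genes changed by 1 on the log2 scale, 33% of 100 changed by 0.5 and 0.108% of 7397 unchanged genes. The changed genes were drawn at random from all genes tested, so these shares are not those of the 46 genes.

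The alternatives were DESeq2 1.42.0, its size factors in edgeR, limma-voom and limma-trend (limma 3.58.1) on log2(CPM + 1), no filter, a mean of at least 50 counts, a replicate block and leaving out each library. Counting only protein-coding transcripts was added after the data were seen. Replicate numbers were not treated as pairs, because the correlation between libraries of the same number lay between -0.0328 and 0.00889. R 4.3.3 and Python 3.11.15 were used.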

Additional observations from a re-analysis of the deposited data

Results flagged for a closer look

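Of 92 groups of 4 libraries (46 genes in 2 conditions), 3 held a library that stood apart from the other 3 by Dixon's test at the 95% level, and chance alone marks about 1 group in 20. ORC1 was at 60.1 CPM in shPTBP1 replicate 2, where the other 3 lay between 39.2 and 41.6 CPM. GINS3 was at 25.0 CPM in shControl replicate 4, below the 30.6 to 31.3 CPM of the others. RFC1 was at 44.01 CPM in shControl replicate 3, above the 32.6 to 33.1 CPM of the others. These 3 genes were not called.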

How the results depend on the processing

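The 1 called replication gene, ORC5, was the result that changed most often. The count of called replication genes was 0 with DESeq2 (which gave an adjusted p to 34 of the 46), limma-voom, no filter on low counts, limma-trend on the CPM table and the replicate block, and it was 0 each time a library was left out. ORC5 had edgeR adjusted p values of 0.0903 with the replicate block and 0.0854 with no filter, and 0.142 with DESeq2. It was called with DESeq2 size factors in edgeR (0.0466), a mean of at least 50 counts (0.0420) and protein-coding transcripts only (0.0458, chosen after the data were seen). No replication gene was called lower in any of these 16 settings. Of the 46, only 27 were fitted with a mean of at least 50 counts and 43 with protein-coding transcripts only.

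Over all genes the count of calls was 421, and 184 to 358 when single libraries were left out, lowest without shPTBP1 replicate 3, while the replicate block gave 323. The median log2 fold change of the replication genes, 0.06, was 0.14 with a mean of at least 50 counts (27 genes), 0.019 with limma-trend, and 0.046 to 0.11 when a library was left out (0.092 without shPTBP1 replicate 4, 0.11 without shControl replicate 1 or 2). MCM10 changed sign with limma-trend (-0.0036) and without shPTBP1 replicate 1 (-0.0061), shPTBP1 replicate 4 (-0.04) or shControl replicate 1 (-0.12), and ORC6 without shPTBP1 replicate 3 (-0.015). Over the libraries left out, MCM10 ranged from -0.12 to 0.15 and ORC6 from -0.015 to 0.092. The cause was not tested. TFDP1 was called with no filter and without shControl replicate 1. Of 238 values of the genes given in full, 233 kept their direction, and 0 isoforms of the 46 genes were called under the 13 settings run for isoforms. Low counts limit what could be detected, as in CDT1 (0 to 18 per library), RRM2 (5 to 18) and POLE without POLE-214 (1 to 8).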
